A study of Drosophila melanogaster with 12 samples.

Results

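The cuticular protein genes of Drosophila melanogaster were examined in whole adult females that had mated 2 times, 1 time or not at all. Members were the genes whose symbols begin with Cpr and a digit, Ccp84A, Lcp and a digit, Acp65A or Twdl, on probe sets (the groups of probes that stand for a transcript on an array) with a single gene symbol in the platform annotation. There were 101 of them among 11981 genes with such a probe set: 66 Cpr genes, 24 Twdl genes, 7 Lcp genes, 3 Ccp84A genes and Acp65Aa. The probe set with the highest mean over the arrays stood for its gene, which mattered for 2 genes, Cpr47Ef and Lcp65Aa. A further 6 probe sets of the family carry several symbols and were not used.

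RNA abundance was measured on Affymetrix Drosophila Genome 2.0 arrays, 4 for each mating group, 12 in all. All females came from LHM, a large outbred wild-type laboratory population, were collected as virgins on day 9 of culture, lived singly, and received 0.375 mg of live yeast on day 12. Each array held the RNA of its own pool of 8 whole flies, so every tissue contributed. The title of the series places the work among studies of reproduction and the cost of mating. Double mated females were with a male for up to 60 minutes on day 12 and mated again on day 13. Single mated females had no male on day 12, and their mating is taken to be the one of day 13, because the deposited description breaks off there. Virgin females never had a male, and on day 12 they and the single mated females were briefly anesthetized when males were removed from the double mated females. Males were non-virgin offspring of a cross between inbred lines drawn from LHM, and mated females were frozen 6 hours after mating.

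Insect cuticle is built of chitin fibres embedded in structural proteins, which are secreted by the epidermis and by the cells that line the foregut, hindgut, tracheae and reproductive ducts. The Cpr, Ccp84A, Lcp and Acp65A proteins share the Rebers and Riddiford sequence, which in many of them binds chitin, and the Tweedle proteins encoded by the Twdl genes form a separate family with a role in body shape. Most of these genes are known for bursts of expression before a moult, when a new cuticle is made, and the Lcp genes were first described from the larval cuticle. Acp65Aa was described from the cuticle of the adult. For most members no individual role is known well enough to be given here, and the number in most symbols, such as Cpr67B, is that of the chromosome band where the gene lies.

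Signals are given as log2 values, and group values as mean ± SD with n = 4 arrays. A gene is called changed where the Benjamini-Hochberg adjusted p of a limma fit over all 18769 probe sets was under 0.05. Arrays give no read depth, and precision is limited by their number. Array medians ran from 5.97 to 5.98 in virgin and from 6.01 to 6.07 in mated females, so they differ along the comparison with virgins. Counts with arrays centred on their medians are therefore given below. Double mated replicate 4 stood apart: its differences from the mean of the other arrays of its group had an SD of 0.245 over all probe sets and 0.191 over the members, against at most 0.185 and 0.163 for any other array. All 7 measured marker genes of adult females, yolk and eggshell genes, had means between 10.20 and 15.09. Of these, 3 rose in mated females (Vm26Aa, Vm34Ca and Yp2). The 9 measured marker genes of male accessory gland and testis had means between 3.32 and 6.26, and none was called in any of the comparisons. At an unadjusted p under 0.05, 0 of the 9 passed for mated against virgin females, 0 for double mated against virgin, 1 for single mated against virgin and 1 for double against single mated. With each array's trend on gene span removed, 1 of the 9 was called higher in mated females, beside 31.3% of the probe sets in that fit called.

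Of the 101 genes, 60 had a mean of 5 or more over the 12 arrays and 41 had a lower mean. That is 59.4% of the members, beside 62.4% of all probe sets. By group, 59 members had a mean of 5 or more in double mated, 61 in single mated and 61 in virgin females, and 48 members were at 5 or above on each of the 12 arrays. The median of the members' means was 5.17, and the means ran from 3.52 to 11.13. Over all probe sets the median was 6.01. A probe set's signal also depends on its probes, so these values place a gene against the limit of 5 and do not rank transcripts of different genes.

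**Figure D1:**
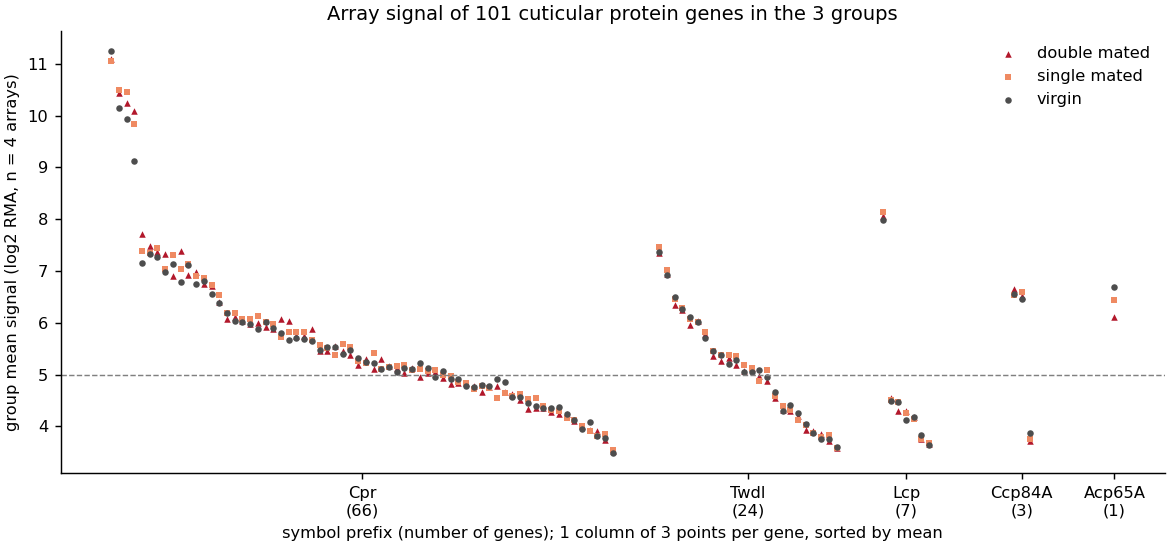
Group mean signal (vertical axis, log2 RMA) of the 101 genes, 1 column of 3 points a gene, ordered by mean within each symbol prefix; triangles are double mated, squares single mated and circles virgin females (n = 4 arrays each), and the dashed line marks 5. Of the 101 genes, 60 have a mean at or above the line, and no gene's group means differ by 1 or more.

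Every symbol prefix had members above the limit. Among Cpr genes 43 of 66 had a mean of 5 or more, and among Twdl genes 13 of 24. Among Lcp genes 1 of 7 did, Lcp65Aa at 8.06, and the other 6 lay between 3.65 and 4.51. Of the Ccp84A genes, Ccp84Ae at 6.58 and Ccp84Ac at 6.52 lay above the limit and Ccp84Ag at 3.79 below it. The mean of Acp65Aa was 6.42.

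Most members lay in the lower bands of signal. There were 13 with a mean under 4, 28 between 4 and 5, 30 between 5 and 6, 17 between 6 and 7, 8 between 7 and 8, 2 between 8 and 10 and 3 at 10 or more. The members just above 5 were Cpr65Az at 5.03, Cpr76Bc at 5.07 and Cpr72Eb at 5.10. Just below it were Cpr65Aw at 4.997, TwdlR at 4.98 and TwdlM at 4.98. The within-group SD, pooled over the 3 groups, ran from 0.04 to 0.22 over the members with a median of 0.13, so genes this near the limit lie on either side of it by less than their spread.

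The 3 members with a mean of 10 or more were Cpr65Au, Cpr49Ab and Cpr49Ae. Cpr65Au had 11.15, 11.13, 11.24 and 10.84 in double mated, 11.08, 10.88, 11.05 and 11.22 in single mated, and 11.12, 11.30, 11.30 and 11.25 in virgin females. The 3 groups overlapped. Mated minus virgin was -0.17 ± 0.08 (SE, adjusted p = 0.147, limma) for Cpr65Au, which was called in none of the comparisons. Cpr49Ab and Cpr49Ae were called and are described below.

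The first comparison asks which members differ between mated and virgin females: both mated groups, averaged, were set against the virgin group. Virgin females never had a male, so mating and the presence of a male cannot be told apart. The averaged groups also differ in the day of their first mating. Of the 101 members 6 rose and 3 fell, 8.91% of them, beside 24.5% of all probe sets (10.3% higher and 14.2% lower). Cpr67B, Cpr47Ef, Cpr66D, Cpr49Ae, Cpr49Ab and Cpr76Bd rose, by 1.15-fold to 1.79-fold, and Acp65Aa, Cpr11B and Cpr60D fell to between 0.751 and 0.873 of the virgin level. At an unadjusted p under 0.05, 14 members passed, beside 34.1% of all probe sets. In 3 members all 8 mated arrays lay above all 4 virgin arrays and in none did all lie below, beside 15.2% of all probe sets that separated in either direction. Values in whole flies cannot tell fewer cells of a type from less RNA per cell.

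The split of these 9 calls depended on scaling. After cyclic loess 5 rose and 5 fell, beside 22.2% of all probe sets called. With arrays centred on their medians 5 rose and 9 fell, beside 28.9%, and once each array's trend on gene span was removed 8 rose and 1 fell, beside 31.3%. Without virgin replicate 1 there were 5 calls, beside 20.3% of all probe sets, and without virgin replicate 3 there were also 5, beside 18.2%. Without double mated replicate 4 there were 12, 8 higher and 4 lower, where 29.0% of all probe sets were called.

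Each mated group was then compared with the virgins, and the same virgin arrays serve both comparisons. In double mated females 8 members rose and 2 fell, 9.90% of them, beside 28.1% of all probe sets (12.3% higher and 15.7% lower). In single mated females Cpr67B and Cpr49Ae rose and Cpr11B fell, 2.97% of the members, beside 9.66% of all probe sets (4.49% higher and 5.17% lower). At an unadjusted p under 0.05, 16 members passed for double mated females, beside 36.8% of all probe sets, and 11 for single mated females, beside 24.8%. Double mated arrays lay wholly above the virgin arrays in 8 members and wholly below in 6, beside 27.9% of all probe sets in either direction. Single mated arrays lay wholly above in 6 and wholly below in 3, beside 20.8%. One member, Cpr67B, was called in both comparisons.

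Those counts also moved with single arrays and with scaling. For double mated females there were 6 calls without virgin replicate 1 and 6 without virgin replicate 4, where 24.6% of all probe sets were called in either fit. Without double mated replicate 4 there were 14, where 31.8% were called. With centred arrays 3 members rose and 9 fell in double mated females, beside 32.5% of all probe sets called, and 2 rose and 4 fell in single mated females, beside 13.7%.

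Double mated females were set against single mated ones to test the difference between the mated groups directly. These groups differ in the number of matings, in the presence of a male on day 12 and in the time since the first mating. The design cannot tell those apart. Cpr47Ee rose, the only member called among 101 (0.99%, beside 5.29% of all probe sets, 3.55% higher and 1.74% lower). At an unadjusted p under 0.05, 13 members passed, beside 21.6% of all probe sets. Double mated arrays lay wholly above the single mated arrays in 4 members and wholly below in 1, beside 11.0% in either direction. Without double mated replicate 4, 6 members were called: Cpr67B, Cpr66D, Cpr47Ee and Cpr51A were higher and TwdlM and Cpr31A lower, where 11.6% of all probe sets were called. None was called without virgin replicate 2, virgin replicate 3, double mated replicate 2 or double mated replicate 3, beside 4.64%, 4.69%, 3.27% and 3.45% of all probe sets, and 2 were without double mated replicate 1, beside 4.42%.

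Across the 3 groups, the moderated F test called 9 members, beside 24.9% of all probe sets, and 14 without double mated replicate 4, beside 29.9%. At least 1 of the 4 comparisons called 14 of the 101 members, 13 Cpr genes and Acp65Aa, beside 30.4% of all probe sets. Of the 14, 10 had a higher mean in double mated than in virgin females and 4 a lower one. TwdlM was called by the F test alone (adjusted p = 0.048). It had 4.88, 4.86, 4.86 and 4.90 in double mated, 5.02, 5.17, 4.96 and 5.23 in single mated, and 4.94, 4.93, 4.99 and 4.95 in virgin females.

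**Figure D2:**
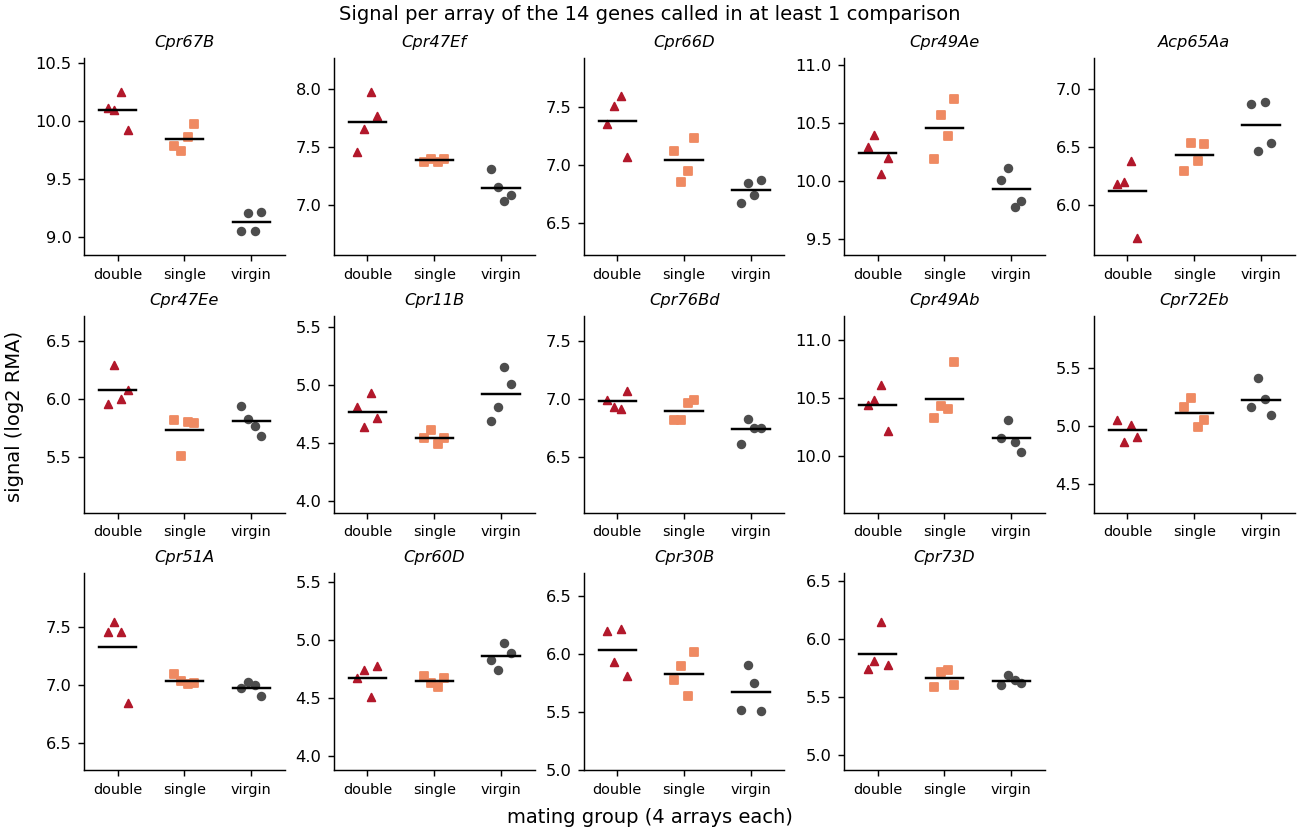
Signal on each array (vertical axis, log2 RMA, every panel spanning the same range around its gene's mean) of the 14 genes called in at least 1 comparison; triangles are double mated, squares single mated and circles virgin arrays, and the bar is the mean of 4 arrays. Cpr67B separates all mated from all virgin arrays, and the fourth double mated array of Cpr51A, at 6.85, lies apart from the other 3.

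Cpr67B, a gene of the Cpr family, had the largest change of all members in mated against virgin females. Its signal was 10.11, 10.09, 10.25 and 9.92 in double mated, 9.78, 9.74, 9.86 and 9.97 in single mated, and 9.05, 9.20, 9.05 and 9.21 in virgin females. All 8 mated arrays lay above all 4 virgin arrays, and of the double mated arrays only replicate 4 lay below a single mated array. Group means were 10.09 ± 0.13 in double mated, 9.84 ± 0.10 in single mated and 9.13 ± 0.09 in virgin females. Against virgins Cpr67B was 1.95-fold higher in double mated (95% interval 1.74 to 2.19, adjusted p = 4.72e-06) and 1.63-fold higher in single mated females (1.45 to 1.83, adjusted p = 0.000186), in limma. Double minus single mated was 0.26 ± 0.08 (SE, adjusted p = 0.0687) and 0.32 without double mated replicate 4 (adjusted p = 0.0166).

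Cpr47Ef and Cpr66D rose in double mated females and were intermediate in single mated ones. Cpr47Ef had 7.46, 7.66, 7.98 and 7.77 in double mated, 7.37, 7.40, 7.37 and 7.40 in single mated, and 7.31, 7.16, 7.04 and 7.09 in virgin females. The 3 groups did not overlap. It was 1.48-fold higher in double mated than in virgin females (95% interval 1.29 to 1.70, adjusted p = 0.000382), and single mated minus virgin was 0.24 ± 0.09 (SE, adjusted p = 0.125). Double minus single mated was 0.33 ± 0.09 (SE, adjusted p = 0.055) for this gene. The second probe set of Cpr47Ef, with a mean of 4.54, gave -0.07 ± 0.07 for double mated minus virgin (SE, adjusted p = 0.521). The rise was therefore seen on the brighter probe set only. A mean under 5 is near the low end of the array's range, where 4.82% of all probe sets were called in that comparison.

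Cpr66D is known as a component of the corneal lens, the chitin-rich cuticle over each facet of the eye. It had 7.35, 7.51, 7.59 and 7.07 in double mated, 7.12, 6.85, 6.95 and 7.23 in single mated, and 6.67, 6.84, 6.74 and 6.87 in virgin females. Double mated arrays lay above all virgin arrays, and single mated arrays overlapped with both other groups. Cpr66D was 1.51-fold higher in double mated than in virgin females (95% interval 1.29 to 1.78, adjusted p = 0.000843, limma), and single mated minus virgin was 0.26 ± 0.11 (SE, adjusted p = 0.157). Double minus single mated was 0.34 ± 0.11 (SE, adjusted p = 0.0844) and 0.45 without double mated replicate 4 (adjusted p = 0.0103). Another corneal lens component, Cpr72Ec, was not called: its means were 6.90 ± 0.07 in double mated, 7.30 ± 0.30 in single mated and 7.14 ± 0.22 in virgin females, with double minus single mated at -0.40 ± 0.13 (SE, adjusted p = 0.0949). Cpr72Ec was picked out after its values were seen.

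Cpr49Ae and Cpr49Ab lie in 1 group of neighbouring genes and both rose in mated against virgin females. Cpr49Ae had 10.29, 10.40, 10.06 and 10.20 in double mated, 10.19, 10.57, 10.39 and 10.71 in single mated, and 10.01, 10.11, 9.78 and 9.83 in virgin females. All single mated arrays lay above the virgin arrays, and double mated replicate 3 lay below virgin replicate 2. Cpr49Ae was 1.45-fold higher in single mated than in virgin females (95% interval 1.23 to 1.71, adjusted p = 0.00924, limma). Double mated minus virgin was 0.31 ± 0.11 (SE, adjusted p = 0.0534) for Cpr49Ae, and double minus single mated was -0.23, with a 95% interval of -0.46 to 0.01 (adjusted p = 0.255).

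Cpr49Ab had 10.44, 10.48, 10.61 and 10.21 in double mated, 10.33, 10.43, 10.40 and 10.81 in single mated, and 10.15, 10.31, 10.12 and 10.03 in virgin females. Single mated arrays lay above the virgin arrays, and of the double mated arrays replicate 4 lay below a virgin array. With all 12 arrays it was called over both mated groups only, 1.24-fold higher than in virgins (95% interval 1.08 to 1.42, adjusted p = 0.0239). That call was lost without virgin replicate 1 (adjusted p = 0.0567), virgin replicate 3 (0.0713) or virgin replicate 4 (0.0873). In the fit without double mated replicate 4, Cpr49Ab was called in mated (adjusted p = 0.00833), double mated (0.0197) and single mated females (0.0359) against virgins. For double minus single mated the value of Cpr49Ab was -0.06, with a 95% interval of -0.29 to 0.17 (adjusted p = 0.803).

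Acp65Aa, the adult cuticle protein gene, fell. It had 6.18, 6.20, 6.38 and 5.72 in double mated, 6.30, 6.54, 6.38 and 6.53 in single mated, and 6.87, 6.47, 6.89 and 6.54 in virgin females. Double mated arrays lay below all virgin arrays, replicate 4 lowest, and single mated arrays overlapped with both other groups. The double mated level was 0.674 of the virgin level (95% interval 0.555 to 0.819, adjusted p = 0.00436, limma), and the difference without double mated replicate 4 was -0.44 (adjusted p = 0.00739). Over both mated groups it was 0.751 of the virgin level (0.634 to 0.889, adjusted p = 0.0152), a call lost without virgin replicate 1 (0.0629) or virgin replicate 3 (0.0704). Single mated minus virgin was -0.26 ± 0.13 (SE, adjusted p = 0.246), and double minus single mated was -0.31 ± 0.13 (SE, adjusted p = 0.184).

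Cpr47Ee was higher in double mated females than in both other groups. It had 5.96, 6.29, 6.00 and 6.08 in double mated, 5.82, 5.51, 5.80 and 5.79 in single mated, and 5.94, 5.83, 5.77 and 5.68 in virgin females. Double mated arrays lay above all others, narrowly so for the highest virgin array, and single mated and virgin arrays overlapped. It was 1.27-fold higher in double than in single mated females (95% interval 1.11 to 1.46, adjusted p = 0.0371) and 1.21-fold higher than in virgins (1.06 to 1.39, adjusted p = 0.0333), in limma. Single mated minus virgin was -0.07 ± 0.09 (SE, adjusted p = 0.677). The call against single mated females was lost in 8 of the 12 fits that leave out an array (virgin replicates 2 and 3, all single mated replicates, double mated replicates 2 and 3), with adjusted p between 0.0502 and 0.111. The call against virgins was lost without virgin replicate 2, 3 or 4 or double mated replicate 2, with adjusted p between 0.0566 and 0.112.

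Cpr51A, Cpr30B, Cpr73D and Cpr76Bd had smaller increases in double mated females. Cpr51A had 7.46, 7.55, 7.46 and 6.85 in double mated, 7.10, 7.04, 7.01 and 7.02 in single mated, and 6.98, 7.03, 7.00 and 6.91 in virgin females. Replicates 1 to 3 of the double mated group lay above all other arrays and replicate 4 below them all. Cpr51A was 1.28-fold higher in double mated than in virgin females (95% interval 1.07 to 1.52, adjusted p = 0.0343, limma). Without double mated replicate 4 the difference was 0.51 on the log2 scale (adjusted p = 2.41e-05), and double minus single mated was then 0.45 (adjusted p = 0.000473), against 0.29 with all arrays (adjusted p = 0.167). Without any 1 of the 4 virgin arrays or of double mated replicates 1 to 3 the call against virgins was lost, with adjusted p between 0.0526 and 0.111.

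Cpr30B had 6.20, 5.93, 6.22 and 5.81 in double mated, 5.78, 5.90, 5.64 and 6.02 in single mated, and 5.52, 5.91, 5.75 and 5.51 in virgin females, with overlap among all groups. Double mated minus virgin was 0.37 ± 0.12 (SE, adjusted p = 0.026), a call lost without virgin replicate 1 or 4 or double mated replicate 1 or 3 (adjusted p between 0.0785 and 0.0838). Cpr73D had 5.74, 5.81, 6.15 and 5.78 in double mated, 5.59, 5.72, 5.73 and 5.60 in single mated, and 5.60, 5.69, 5.65 and 5.62 in virgin females. Its double mated arrays lay above all others, replicate 3 the highest. The difference of Cpr73D from virgins, 0.23 ± 0.08 (SE, adjusted p = 0.0491), was lost in 10 of the 12 fits that leave out an array, all but those without double mated replicate 1 or 4 (adjusted p of the lost calls between 0.0561 and 0.133).

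Cpr76Bd had 6.99, 6.93, 6.91 and 7.07 in double mated, 6.82, 6.82, 6.97 and 6.99 in single mated, and 6.61, 6.83, 6.75 and 6.75 in virgin females. Double mated arrays lay above all virgin arrays, and single mated arrays reached down to the highest virgin array. Double mated minus virgin was 0.24 ± 0.07 (SE, adjusted p = 0.0153) and mated minus virgin 0.20 ± 0.06 (SE, adjusted p = 0.0206). Both calls of Cpr76Bd were lost without virgin replicate 1, at adjusted p of 0.0559 and 0.0929.

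Cpr11B, Cpr60D and Cpr72Eb fell, all with means near or under 5.1. Cpr11B had 4.81, 4.64, 4.93 and 4.72 in double mated, 4.54, 4.61, 4.49 and 4.54 in single mated, and 4.69, 4.81, 5.16 and 5.01 in virgin females. Single mated arrays lay below all arrays of the other groups, and double mated and virgin arrays overlapped. Single mated minus virgin was -0.37 ± 0.09 (SE, adjusted p = 0.0228, limma), a call lost without virgin replicate 3 or 4 or single mated replicate 3 or 4 (adjusted p between 0.059 and 0.0759). Mated minus virgin was -0.26 ± 0.08 (SE, adjusted p = 0.0313), a call lost without virgin replicate 3 or 4, single mated replicate 3 or double mated replicate 2 (0.0539 to 0.145). Double mated minus virgin was -0.14 ± 0.09 (SE, adjusted p = 0.306).

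Cpr60D had 4.67, 4.74, 4.51 and 4.78 in double mated, 4.69, 4.63, 4.60 and 4.67 in single mated, and 4.83, 4.74, 4.98 and 4.89 in virgin females. Single mated arrays lay below the virgin arrays, and double mated and virgin arrays overlapped. Mated minus virgin was -0.20 ± 0.06 (SE, adjusted p = 0.0296) for Cpr60D, a call lost without virgin replicate 1, 3 or 4 or single mated replicate 3 (0.0527 to 0.129). Cpr72Eb had 5.05, 4.86, 5.01 and 4.90 in double mated, 5.16, 5.24, 4.99 and 5.05 in single mated, and 5.16, 5.41, 5.23 and 5.09 in virgin females. Its double mated arrays lay below all virgin arrays. Double mated minus virgin was -0.27 ± 0.08 (SE, adjusted p = 0.0208) for Cpr72Eb, a call lost without virgin replicate 2 (0.0731) or double mated replicate 2 (0.0661).

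**Figure D3:**
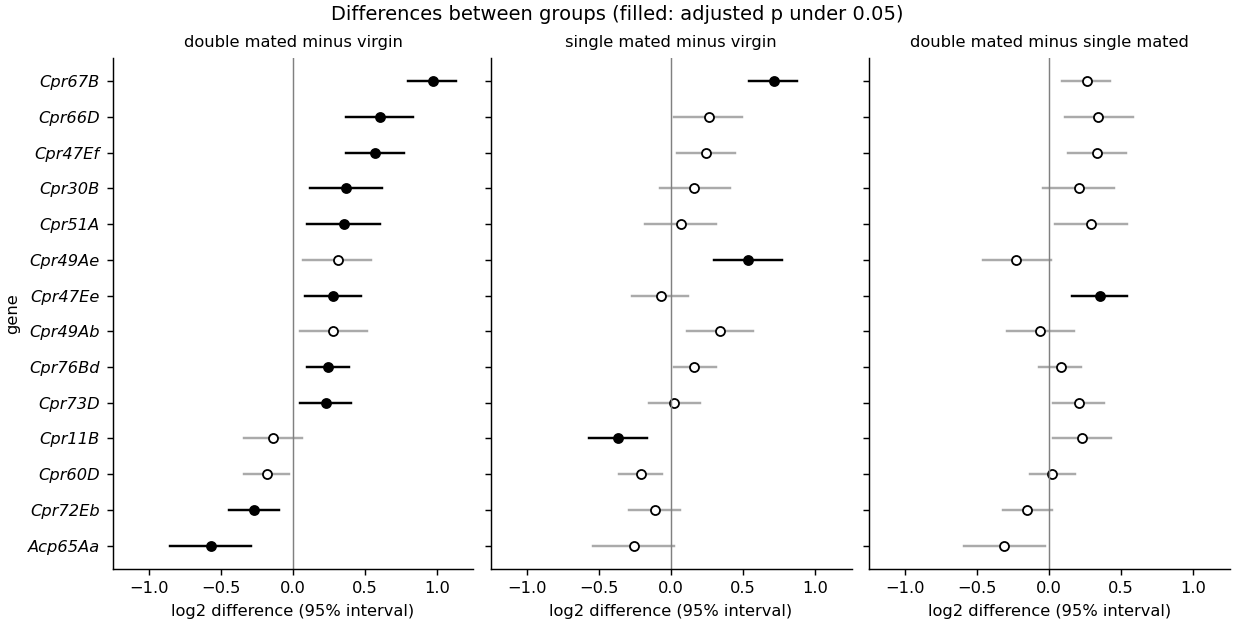
Log2 difference (horizontal axis, point) with its 95% interval (line) for the 14 called genes, in double mated minus virgin, single mated minus virgin and double mated minus single mated females; filled points have an adjusted p under 0.05. Cpr67B has a filled point in both comparisons with virgins, and Cpr47Ee has the only one between the mated groups.

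Of the 24 Twdl genes none was called in any pairwise or pooled comparison with all 12 arrays. Over all probe sets 24.5% were called for mated, 28.1% for double mated and 9.66% for single mated against virgin. Between the mated groups the share was 5.29%. A mean of 5 or more was found for 13 of the 24, the highest at 7.39. Among probe sets with a mean of 5 up to 8 those shares were 21.9%, 26.4%, 8.85% and 6.60%. Among probe sets with a mean under 5, where the rest of the 24 lay, they were 3.39%, 4.82%, 1.01% and 0.794%. Without double mated replicate 4, TwdlM was called lower in double than in single mated females (adjusted p = 0.0442) and TwdlR lower in mated than in virgin females (adjusted p = 0.039). In mated against virgin females 1 Twdl gene passed at an unadjusted p under 0.05. Against virgins 0 did in double mated and 3 in single mated females, and between the mated groups 1 did. Of all probe sets 34.1%, 36.8%, 24.8% and 21.6% passed in those comparisons. TwdlH, with the highest Twdl signal, had means of 7.35 ± 0.07 in double mated, 7.47 ± 0.07 in single mated and 7.36 ± 0.06 in virgin females, and double mated minus virgin was -0.01, with a 95% interval of -0.14 to 0.12. The Twdl differences for double mated minus virgin lay between -0.16 and 0.11, and all 24 had 95% intervals within 0.5 of zero.

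None of the 7 Lcp genes was called in these comparisons either, nor any of the 3 Ccp84A genes. Only 1 of the 7 and 2 of the 3 had a mean of 5 or more. The shares of probe sets called are those given for the Twdl genes, by band of signal. For Lcp65Aa, in the band of 8 or more, they were 47.1%, 52.3%, 18.8% and 8.89% in the same order. At an unadjusted p under 0.05, the Lcp genes had 0 in mated against virgin and 1 in double mated against virgin females. They had 0 in single mated against virgin and 1 in double against single mated females, and the Ccp84A genes had 0 in each. Of all probe sets 34.1%, 36.8%, 24.8% and 21.6% passed, in the same order. Lcp65Aa, the Lcp gene above the limit of 5, had means of 8.06 ± 0.13 in double mated, 8.14 ± 0.10 in single mated and 7.98 ± 0.04 in virgin females (mated minus virgin 0.12 ± 0.06, SE, adjusted p = 0.228). Ccp84Ae had means of 6.66 ± 0.08 in double mated, 6.53 ± 0.16 in single mated and 6.56 ± 0.05 in virgin females, and Ccp84Ac had 6.51 ± 0.07 in double mated, 6.59 ± 0.26 in single mated and 6.45 ± 0.06 in virgin females.

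Small differences were the rule over the 101 members. The median of the members' differences was 0.02 for mated minus virgin, 0.00 for double mated minus virgin, 0.04 for single mated minus virgin and -0.05 for double minus single mated, beside 0.00, -0.02, 0.00 and -0.03 over all probe sets. The median size of the difference, without its sign, was 0.07, 0.09, 0.08 and 0.08 over the members in those comparisons and 0.10, 0.12, 0.10 and 0.09 over all probe sets. No member differed by 2-fold or more. The whole 95% interval lay within 0.5 on the log2 scale of zero for 95 members in mated minus virgin, 92 in double mated minus virgin, 95 in single mated minus virgin and 94 in double minus single mated, out of 101.

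**Figure D4:**
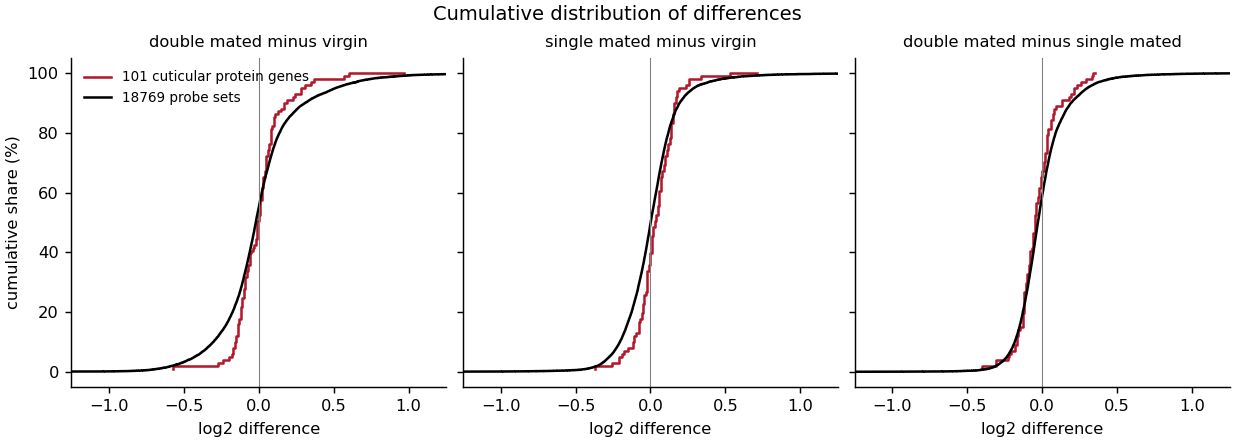
Cumulative share (vertical axis, %) of the log2 difference (horizontal axis) over the 101 genes and over all 18769 probe sets, in double mated minus virgin, single mated minus virgin and double mated minus single mated females. Medians of the 101 genes are 0.00, 0.04 and -0.05 in the 3 panels, beside -0.02, 0.00 and -0.03 for all probe sets.

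Calls were also counted by signal, since bright probe sets were called more often over the whole array. Among the 60 members with a mean of 5 or more, 11.7% were called for mated against virgin, 16.7% for double mated against virgin, 3.33% for single mated against virgin and 1.67% for double against single mated, beside 37.2%, 42.1%, 14.9% and 7.99% of all probe sets with such a mean. Among the 41 members with a lower mean 2 were called for mated against virgin (4.88%, beside 3.39%), none for double mated against virgin (beside 4.82%, with 3 at an unadjusted p under 0.05), 1 for single mated against virgin (2.44%, beside 1.01%) and none for double against single mated (beside 0.794%, with 3 at an unadjusted p under 0.05). Of the 55 members between 5 and 8, 4 were called for mated against virgin (7.27%, beside 21.9% of all probe sets in that band). In that band 9 members were called for double mated against virgin (16.4%, beside 26.4%), none for single mated against virgin (beside 8.85%, with 3 at an unadjusted p under 0.05) and 1 for double against single mated (1.82%, beside 6.60%). Of the 5 members at 8 or more, 3 were called for mated against virgin (beside 47.1%), 1 for double mated against virgin (beside 52.3%), 2 for single mated against virgin (beside 18.8%) and none for double against single mated (beside 8.89%, with 1 at an unadjusted p under 0.05).

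Many cuticular protein genes lie side by side on the chromosome. With runs taken as 3 or more family genes with no more than 2 other protein-coding genes between neighbours, in the gene order of the RefSeq table of assembly Release 6 plus ISO1 MT, 86 family genes fell into 15 runs, and 70 members lay in 14 of them. Members called in at least 1 of the 4 comparisons were found in 5 runs, 7 of the 70 in all, where 30.4% of all probe sets were so called. The Cpr47Ea to Cpr47Eg run held 2 (Cpr47Ef and Cpr47Ee) among 7 measured genes, and the Cpr49Aa to Cpr49Ag run held 2 (Cpr49Ab and Cpr49Ae) among 7. The Cpr72Ea to Cpr72Ec run held 1 of 3 (Cpr72Eb), and the Cpr76Ba to Cpr76Bd run 1 of 4 (Cpr76Bd). The run from Lcp65Ag3 to Cpr65Az has 18 family genes, 11 of them measured, and Acp65Aa was its only call. The other 9 runs with measured genes, 38 members in all, held none, among them the run from TwdlM to TwdlQ with 12 measured genes. The other 7 called members were among the 31 outside runs, and the difference between members inside and outside runs was not tested. Members of a run can share sequence, and probe sets with several symbols were left out.

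**Figure D5:**
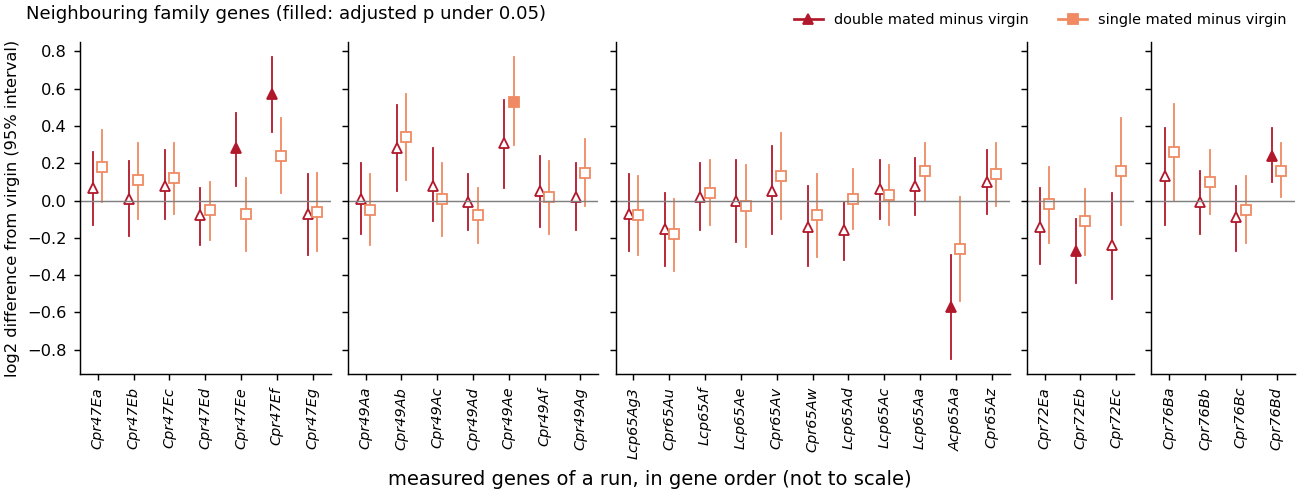
Log2 difference from virgin females (vertical axis, point) with its 95% interval (line) for each measured gene of the 5 runs that hold a called gene, in gene order and not to scale; triangles are double mated and squares single mated minus virgin, and filled symbols have an adjusted p under 0.05. Acp65Aa is the only called gene among the 11 measured in its run, while Cpr47Ee and Cpr47Ef are called and lie side by side. Cpr49Ab was called over both mated groups only and has no filled symbol here.

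Other genes of the cuticle were counted in the same fit. The share of all probe sets called was 24.5% for mated, 28.1% for double mated and 9.66% for single mated against virgin. For double against single mated it was 5.29%. Among probe sets with a mean of 5 or more those shares were 37.2%, 42.1%, 14.9% and 7.99%. The lists below differ in signal, and no share matched to the signal of each list was worked out. Cuticle proteins outside the symbol rule for members, together with chitin-binding proteins, had 3 rises and no fall among 22 measured genes in mated against virgin females (13.6%, median 0.09). Symbols alone set this list apart from the members, and protein sequences were not compared. Pcp, a pupal cuticle protein gene nested in an intron of another gene, had means of 7.26 ± 0.19 in double mated, 7.21 ± 0.25 in single mated and 6.05 ± 0.24 in virgin females. It was 2.27-fold higher in mated than in virgin females (95% interval 1.90 to 2.71, adjusted p = 2.48e-05). The apical matrix gene pio rose 1.32-fold (1.23 to 1.42, adjusted p = 6.32e-05), and Vajk4 rose 1.20-fold (1.08 to 1.33, adjusted p = 0.0123). Without double mated replicate 4, 5 of the 22 rose and none fell, beside 29.0% of all probe sets called.

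Genes that make or modify chitin were counted together with the chitinase-like Idgf genes. Of 29 measured, 7 rose and 3 fell in mated against virgin females (34.5%, median 0.05), and Idgf1, Idgf2 and Idgf3 are among the 7. With centred arrays 4 rose and 6 fell, beside 28.9% of all probe sets called. Cht9, a chitinase gene, was 2.61-fold higher in mated than in virgin females (95% interval 1.98 to 3.42, adjusted p = 0.000128). Idgf1, Idgf2 and Idgf3, of the chitinase-like imaginal disc growth factors, rose 1.88-fold (adjusted p = 2.52e-05), 1.28-fold (0.00171) and 1.26-fold (0.00355). Called chitinase genes went both ways. Cht8 rose 1.22-fold (adjusted p = 0.039), and Cht11 and Cht2 fell to 0.809 (0.00646) and 0.799 (0.0104) of the virgin level. The third fall was that of mmy, to 0.845 (0.0228). Gfat1 rose 1.16-fold (0.0167) and Gnpnat also 1.16-fold (0.0346). Cht8, Cht11, Cht2, mmy, Gfat1 and Gnpnat were named after the values were seen. The chitin synthase of the cuticle, kkv, had a difference of 0.08 ± 0.08 (SE, adjusted p = 0.578) and the gut chitin synthase Chs2 one of 0.07 ± 0.08 (SE, adjusted p = 0.619). For Chs2, double minus single mated was 0.29 ± 0.09 (SE, adjusted p = 0.0899). Both kkv and Chs2 were picked for their roles after the values were seen. In double against single mated females 5 genes of the list rose and none fell (17.2%).

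Tanning and pigmentation genes had 9 rises and 1 fall among 20 (50.0%, median 0.12). Pu, the enzyme that starts synthesis of the cofactor of tyrosine hydroxylase, rose 1.52-fold (95% interval 1.39 to 1.65, adjusted p = 1.86e-05). Of the yellow family, yellow-k rose 1.67-fold (adjusted p = 9.38e-05), yellow-b rose 1.22-fold (0.0164) and yellow-f2 fell to 0.836 of the virgin level (0.00688). With centred arrays 6 of the 20 rose and 2 fell, beside 28.9% of all probe sets called. After cyclic loess 8 rose and 2 fell, beside 22.2%. The tyrosine hydroxylase gene ple, at -0.01 ± 0.06 (SE, adjusted p = 0.943), and Ddc, which makes dopamine, at -0.01 ± 0.06 (SE, adjusted p = 0.952), were not called and were also picked after the values were seen.

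Genes of cuticular hydrocarbon synthesis, which make the waxy surface layer, had 8 rises and no fall among 11 (72.7%, median 0.35). Rises were 1.42-fold for the fatty acid synthase FASN2 (adjusted p = 0.000161), 1.44-fold for FASN3 (0.000949), 2.07-fold for the elongase bond (0.000245) and 1.27-fold for the desaturase Desat1 (0.000581). In double mated against virgin females 8 rose (72.7%), in single mated against virgin 5 rose (45.5%), and in double against single mated 2 rose (18.2%), with no fall in any.

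Regulators of moulting had 3 rises and 2 falls among 19 (26.3%, median 0.03). Kr-h1, which is induced by juvenile hormone, rose 3.11-fold (adjusted p = 1.62e-06), the early ecdysone gene br 1.72-fold (2.74e-05) and Eip93F 1.53-fold (0.00378), while usp, the partner of the ecdysone receptor, fell to 0.874 of the virgin level (0.0185). After cyclic loess 3 rose and none fell, beside 22.2% of all probe sets called. With centred arrays 3 rose and 3 fell, beside 28.9%. A list for the peritrophic matrix, the chitin-bearing lining of the gut, was made of Peritrophin, Muc and Mur symbols. Whether each gene acts in the gut was not examined. This list had 7 rises and 1 fall among 20 (40.0%, median 0.12). Muc68D rose 1.54-fold (adjusted p = 3.34e-05), Peritrophin-15a 2.20-fold (0.000821), Muc11A 1.30-fold (0.00109) and Mur2B 1.61-fold (0.00744).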

How the data were processed

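The authors deposited log2 values per probe set and array made with RMA and the affy package, per the submitters' processing notes. RMA subtracts background, normalizes quantiles and summarizes probes. The genome build is not given in the sources used here, and no coordinates or sequences are given. Gene order and gene spans came from the RefSeq gene table of assembly Release 6 plus ISO1 MT. The table held 18952 probe sets. Of these, 183 control probe sets were left out and 18769 were tested without a filter, 13646 with 1 gene symbol, 402 with several and 4721 with none. Groups followed the sample titles. All 12 arrays, 3 group means and 4 contrasts were fitted with limma 3.58.1 (lmFit, eBayes) in R 4.3.3, with Benjamini-Hochberg adjustment over all probe sets. The fit was tested on simulated data.

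Members and gene lists were chosen with earlier results of these data known. Named genes are all members called in at least 1 contrast, the 3 nearest to the limit of 5 on each side, those at 10 or more, up to 4 called genes of each other list, taken by lowest p over both mated groups, and the marker genes. Members outside that rule (TwdlH, Lcp65Aa, the Ccp84A genes, Cpr31A and Cpr72Ec) were named after their values were seen. Pools came from separate extractions of flies of 1 rearing, so p-values measure the spread between such pools. All 101 members were found in that gene table, which holds 121 family genes, 20 of them without a member probe set. Alternatives were a replicate block, cyclic loess, centring, array weights, trend and robust variance, a filter on dim probe sets, a threshold of 0.01, the probe set of highest variance for each gene, 2 groups only and leaving out each array. Replicate numbers were checked for pairing: over 12 same-numbered pairs the correlation of deviations from the group means ran from -0.264 to 0.143, 1 over 0.1, so the numbers were not taken to pair the arrays. Removing the trend on gene span, and the counts without double mated replicate 4 for the other gene lists, were added after seeing the data.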

Additional observations from a re-analysis of the deposited data

Results flagged for a closer look

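In 60 groups of 4 arrays, those of the named members, 2 held an array further from the others than Dixon's 95% critical value allows, and chance would give about 1 in 20. Cpr51A in double mated replicate 4, at 6.85, was the lowest of its group, with a gap to the next array of 0.871 of the group's range. That array also stood apart over all probe sets, and its part in this value was not tested. Cpr47Ee in single mated replicate 2, at 5.51, was the lowest of its group, with a gap of 0.907 of the range.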

How the results depend on the processing

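Over 23 called contrasts of named members, 494 recomputed values gave 407 with the same direction and call, 87 that kept the direction and lost the call, and 0 that turned, and 54 of the losses came from leaving out an array. The 10 contrasts that kept their call under every alternative run are Acp65Aa (double mated against virgin), Cpr47Ef and Cpr66D (mated and double mated against virgin), Cpr49Ae (mated and single mated against virgin) and Cpr67B (all 3 against virgin). The probe set of highest variance for Cpr47Ef is the one already used, so its other probe set is not among these values: it gave 0.01 for mated minus virgin (adjusted p = 0.969) and -0.07 for double mated minus virgin (adjusted p = 0.521), neither called. The cause of the changes below was not tested, and the share of all probe sets called moved with the fit too. For mated against virgin the share was 24.5% in the main fit and 28.9% with centred arrays. It was 18.2% without virgin replicate 3 and 29.0% without double mated replicate 4. Shares were not counted for array weights, the replicate block, trend and robust variance or 2 groups only. Nor were they for the filter on dim probe sets or the threshold of 0.01. Counts of members called for mated against virgin were 14 with centred arrays, 4 at a threshold of 0.01 and 5 to 12 without 1 array. For single mated against virgin they were 6 with centred arrays, 5 with array weights, 5 with only the arrays of the groups compared and 2 to 4 without 1 array. For double mated against virgin they were 4 at 0.01 and 6 to 14 without 1 array. For double against single mated they were 0 with the replicate block, 2 with centred arrays, 3 among probe sets of a mean of 5 or more, 2 with the trend and robust variance, 7 with array weights, 0 with only the arrays of the groups compared, 2 without the trend on gene span, 0 at 0.01 and 0 to 6 without 1 array. The F test called 14 members with centred arrays, 15 with array weights, 4 at 0.01 and 6 to 14 without 1 array. Centring moved the median over named probe sets by -0.06 to -0.07 against virgins. With the replicate block mated against virgin had 7 calls, and 2 of 12 arrays correlated best with an array of their own number. Transcript lengths were not used here, so the planned trend on them was not run, and gene spans took their place. Signals under 5 are near the low end of the array's range, which limits what can be seen for the 41 members there.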
